A study of Mus musculus with 2 samples.

Results

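The genes described here were 10 mouse CC chemokine genes, Ccl2, Ccl3, Ccl4, Ccl5, Ccl6, Ccl7, Ccl8, Ccl9, Ccl12 and Ccl22, listed by symbol and found once each among the 55536 annotated genes of the deposited gene-level table. Their transcripts were 17 of 141862 in the transcript tables. CC chemokines are small secreted proteins that draw leukocytes along a concentration gradient by binding G-protein-coupled receptors on them. They are named for a pair of adjacent cysteines near the start of the mature protein. In macrophages, bacterial endotoxin acting through Toll-like receptors is a known inducer of several of them, and some others, such as Ccl6 and Ccl9, are known to be made by mouse myeloid cells without stimulation. Most of the genes lie in clusters that arose by tandem duplication.

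The cells were C57BL/6J mouse bone-marrow-derived macrophages, primary phagocytes that are grown in culture from marrow. The cells received 100 ng/ml lipid A, the part of endotoxin that Toll-like receptor 4 senses, over 12 h, were washed and left for 12 h, and received 100 ng/ml again for 50 min before the nuclear RNA was taken, depleted of ribosomal RNA and sequenced. The fraction is called nucleoplasmic in one label and nuclear in another. There was 1 group of 2 libraries, both with this full treatment: the RNA input was 500 ng for replicate 1 and 1 µg for replicate 2. Replicate and RNA input therefore cannot be told apart. Both libraries carry 1 donor entry and the labels mention no separate animals or cultures. SDs therefore describe only the spread between these libraries, which may be technical. The binomial p-values given below take counting as the only error and measure no spread between replicates. Libraries without stimulation, after 1 exposure or from whole cells were not analysed here, and the levels given are not responses to the stimulus. The age and sex of the mice were not collected, per the labels.

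The gene-level tables held 20612078 counts in replicate 1 and 22772081 counts in replicate 2. A count of 0 allows up to 3 counts, which is 0.146 CPM (counts scaled to a fixed library total) in replicate 1 and 0.132 CPM in replicate 2. This limit covers counting error only. All 8 macrophage markers, among them Lyz2, Adgre1 and Csf1r, stood above the median of protein-coding genes, and they summed to 2225 TPM in replicate 1 and 2232 TPM in replicate 2. All 21 markers of 7 other cell types stood below that median and summed to 2.37 TPM in replicate 1 and 3.85 TPM in replicate 2. The T-cell marker Cd3e, the natural killer cell markers Ncr1, Klrb1c and Gzma and the neutrophil marker Ly6g had 0 counts in both libraries. TPM, a length-corrected unit of relative abundance, is a count divided by effective length and scaled to the same total in every library, so it is the scale on which genes are compared with each other below.

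The family's defining feature could be read in the coding sequence of each gene: each of the 10 held exactly 1 in-frame pair of adjacent cysteine codons. Ccl4 and Ccl12 wrote the pair as TGCTGT and the other 8 genes as TGCTGC. The stretches below are from the GENCODE M21 transcripts, 5′ to 3′, with the pair of codons in capitals. They show the 2 genes with the highest mean TPM, Ccl5 and Ccl4, and the 2 genes that differed at least 2-fold between the libraries, Ccl12 and Ccl8, all on chromosome 11.
Ccl5-201, codons 33 and 34: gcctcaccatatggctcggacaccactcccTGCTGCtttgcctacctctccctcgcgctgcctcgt
Ccl4-201, codons 34 and 35: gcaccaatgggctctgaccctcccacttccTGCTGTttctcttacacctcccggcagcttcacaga
Ccl12-201, codons 33 and 34: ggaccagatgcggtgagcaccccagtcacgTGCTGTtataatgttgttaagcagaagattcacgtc
Ccl8-201, codons 32 and 33: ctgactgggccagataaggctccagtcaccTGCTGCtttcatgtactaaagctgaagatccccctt
Coding sequences of pairs within a chromosome 11 cluster were 57.4% to 71.9% identical, with a median of 64.7% over 16 pairs. Pairs that were not in the same cluster were 56.7% to 67.1% identical, with a median of 62.0% over 29 pairs. The closest pairs were neighbours on the chromosome: Ccl9 and Ccl6 were 71.9% identical, Ccl12 and Ccl8 70.7%, and Ccl3 and Ccl4 69.3%. No stretch of 31 bases was shared between transcripts of different members, and no exon of a member overlapped an exon of another annotated gene. The gene-level posterior SD of the count, which the authors deposited as a measure of uncertain read assignment, was 0 for all 10.

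RNA of most of the 10 listed CC chemokine genes was abundant in these nuclei. The list was chosen with earlier results of these data known, so these levels do not describe the whole CC family. The 10 genes together held 2084 TPM in replicate 1 and 2825 TPM in replicate 2, and took 0.204% of all counts in replicate 1 and 0.24% in replicate 2. The deposited table made from a transcript index (index-based table), summed per gene, gave 1436 TPM in replicate 1 and 949 TPM in replicate 2. The direction of summed TPM between the libraries therefore depended on the table. Of the 10, 7 stood above the 90 percentile of protein-coding genes by mean TPM (28.7 TPM, over 12140 genes with 10 or more counts), and 5 of them stood above the 99 percentile: Ccl5, Ccl4, Ccl3, Ccl7 and Ccl2. In bulk RNA, fewer cells of a type and less RNA per cell cannot be told apart, so these are levels per library. The genes spanned a wide range, since Ccl5 was 402-fold above Ccl22 in replicate 1 and 1155-fold above it in replicate 2.

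**Figure D1:**
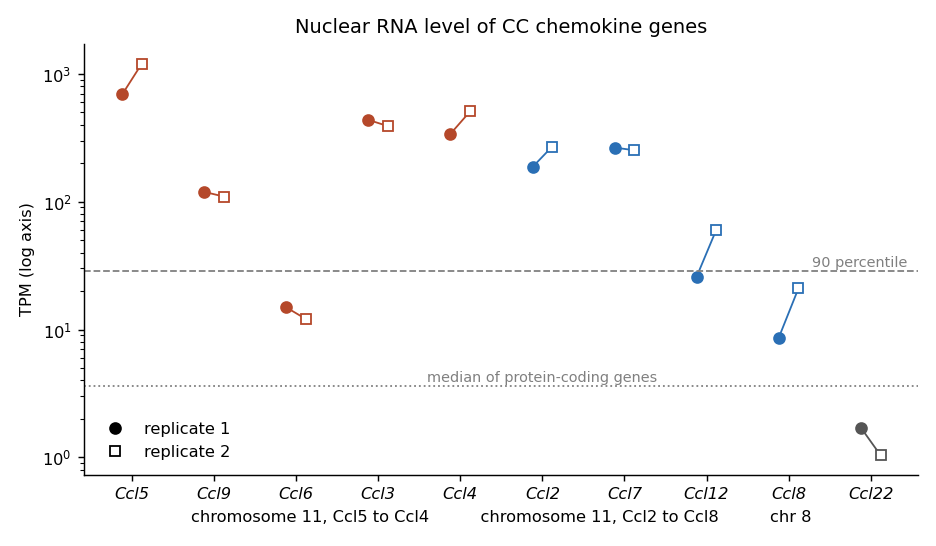
Gene-level TPM (vertical log axis) of the 10 CC chemokine genes in replicate 1 (filled circles) and replicate 2 (open squares), grouped by cluster, with lines at the median (3.58 TPM) and the 90 percentile (28.7 TPM) of protein-coding genes. Ccl5, Ccl9, Ccl3, Ccl4, Ccl2 and Ccl7 lie above the upper line in both libraries, Ccl12 crosses it, Ccl6 and Ccl8 lie between the lines and Ccl22 lies below both.

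Ccl5, Ccl4 and Ccl3 encode inflammatory chemokines that attract effector T cells and macrophages, and Ccl5 and Ccl3 bind Ccr1. They were the 3 highest of the 10. Ccl5 (mm10 chromosome 11, 83525778 to 83530518, minus strand) had 688 TPM in replicate 1 and 1201 TPM in replicate 2, a mean of 945 ± 363 TPM (SD, n = 2). By this mean, Ccl5 ranked 21 among protein-coding genes. The index-based table gave Ccl5 477 TPM in replicate 1 and 382.7 TPM in replicate 2, the opposite direction. Ccl4 (chromosome 11, 83662584 to 83664683, plus strand) had 339 TPM in replicate 1 and 508 TPM in replicate 2. Ccl3 (chromosome 11, 83647844 to 83649355, minus strand) had 436 TPM in replicate 1 and 389 TPM in replicate 2, a narrower gap. The range of Ccl3 lay within that of Ccl4, so these 2 levels did not differ beyond the spread between libraries, and they ranked 47 (Ccl4) and 48 (Ccl3) among protein-coding genes. Ccl5 stood above both in each library.

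Ccl2, Ccl7, Ccl12 and Ccl8 make up the monocyte chemoattractant group. Ccl2, Ccl7 and Ccl12 act on Ccr2, the receptor through which inflammatory monocytes are recruited, and mouse Ccl8 is known as a ligand of Ccr8. The group held high and low members. Ccl7 (chromosome 11, 82045712 to 82047525, plus strand) had 265 TPM in replicate 1 and 252 TPM in replicate 2. Ccl2 (chromosome 11, 82035571 to 82037453, plus strand) had 186 TPM in replicate 1 and 269.8 TPM in replicate 2, so that the range of Ccl7 lay within that of Ccl2. Ccl12 (chromosome 11, 82101845 to 82103400, plus strand) was lower, with 25.9 TPM in replicate 1 and 60.5 TPM in replicate 2. Ccl8 (chromosome 11, 82115185 to 82116799, plus strand) was the lowest of the group, with 8.63 TPM in replicate 1 and 20.97 TPM in replicate 2.

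Ccl9 and Ccl6 encode Ccr1 ligands known from rodents. Ccl9 (chromosome 11, 83572919 to 83578636, minus strand) had 119 TPM in replicate 1 and 109.5 TPM in replicate 2, and Ccl6 (chromosome 11, 83587882 to 83593087, minus strand) had 14.9 TPM in replicate 1 and 12.1 TPM in replicate 2. Although these 2 genes are the closest pair in coding sequence and lie 14.5 kb apart on the same strand, Ccl9 was 8.01-fold above Ccl6 in replicate 1 and 9.08-fold above it in replicate 2. In the index-based table the same folds were 16.9 in replicate 1 and 18.7 in replicate 2. That table put 60% of Ccl9's TPM in replicate 1 and 67.5% in replicate 2 on a short processed transcript, Ccl9-202, described below. Ccl22 (chromosome 8, 94745590 to 94751699, plus strand), a ligand of Ccr4 that attracts regulatory and type 2 helper T cells, was the one member below the protein-coding median. It had 113 counts and 1.71 TPM in replicate 1, and 72 counts and 1.04 TPM in replicate 2.

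Ordered by mean TPM, the genes ran Ccl5, Ccl4, Ccl3, Ccl7, Ccl2, Ccl9, Ccl12, Ccl8, Ccl6 and Ccl22. Of the 9 neighbouring pairs in this order, 6 kept apart in both libraries. The ranges of the other 3 pairs, Ccl4 and Ccl3, Ccl7 and Ccl2, and Ccl8 and Ccl6, overlapped, and their order is not resolved. In the index-based transcript table summed per gene, Ccl9 ranked 4 in replicate 1 and 6 in replicate 2. That table gave lower TPM at the median gene: the gene-level TPM was 1.49 times the index-based TPM in replicate 1 and 3.16 times in replicate 2 at the median of 7844 protein-coding genes with 100 or more counts in each library, and 1.60 and 3.08 times at the median of the 10 members. Ccl9 departed most from this, at 0.787 times in replicate 1 and 1.49 times in replicate 2. Its index-based sum includes Ccl9-202, at 90.85 TPM in replicate 1 and 49.62 TPM in replicate 2. The coding transcript Ccl9-201 had 60.56 TPM and 23.93 TPM there.

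The 9 members on chromosome 11 lie in 2 clusters. The cluster from Ccl5 to Ccl4, with Ccl9, Ccl6 and Ccl3 between them, spans 138.9 kb. The cluster from Ccl2 to Ccl8, with Ccl7 and Ccl12 between them, spans 81.2 kb. The Ccl5 to Ccl4 cluster held 1597 TPM in replicate 1 and 2220.3 TPM in replicate 2, a mean of 1909 ± 441 TPM (SD, n = 2). The Ccl2 to Ccl8 cluster held 486 TPM in replicate 1 and 603 TPM in replicate 2, a mean of 545 ± 83.3 TPM (SD, n = 2). The Ccl5 to Ccl4 cluster was therefore 3.29-fold above the Ccl2 to Ccl8 cluster in replicate 1 and 3.68-fold above it in replicate 2, and the 2 libraries differed less from each other than the clusters did. In log2 units the difference averaged 1.80 ± 0.115 (SD, n = 2). With 2 libraries of 1 group it was not tested. On counts, which are not divided by length, the same ratio was 3.37-fold in replicate 1 and 3.33-fold in replicate 2.

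**Figure D2:**
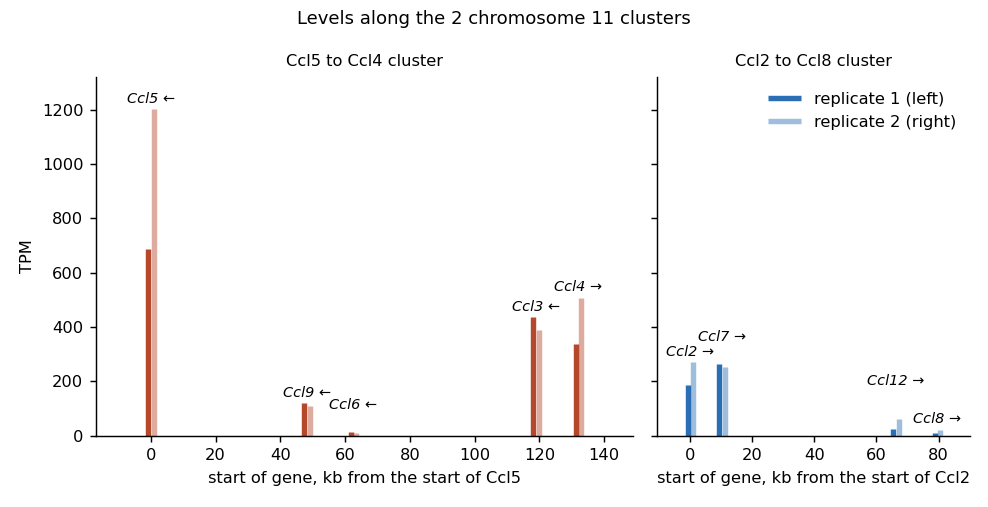
Gene-level TPM (vertical axis) of the members of the 2 chromosome 11 clusters at the distance of each gene's start from the start of Ccl5 or Ccl2 (horizontal axis, kb). Dark bars on the left of each pair are replicate 1, pale bars on the right are replicate 2, and arrows give the strand; Ccl5 is the tallest at 688 and 1201 TPM, the low gene Ccl6 lies between higher ones, and in the other cluster Ccl2 and Ccl7 are high and Ccl12 and Ccl8 low.

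Within each cluster, a single gene held a large share. Ccl5 held 43.1% of its cluster's TPM in replicate 1 and 54.1% in replicate 2. In the Ccl2 to Ccl8 cluster the leading gene was Ccl7 in replicate 1, with 54.5%, and Ccl2 in replicate 2, with 44.7%. The highest member of the Ccl5 to Ccl4 cluster exceeded its lowest, Ccl6, by 46.2-fold in replicate 1 and 99.6-fold in replicate 2. In the Ccl2 to Ccl8 cluster the highest exceeded the lowest, Ccl8, by 30.7-fold in replicate 1 and 12.9-fold in replicate 2. The proportions between neighbours varied between libraries and tables. Ccl12 was 3.005-fold above Ccl8 in replicate 1 and 2.88-fold above it in replicate 2, against 4.96-fold and 3.97-fold in the index-based table. Ccl3 was 1.29-fold the level of Ccl4 in replicate 1 and 0.765-fold in replicate 2, but in the index-based table it was below Ccl4 in both, at 0.908-fold and 0.704-fold. Ccl2 was 0.704-fold the level of Ccl7 in replicate 1 and 1.07-fold in replicate 2.

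Other genes inside the clusters were low, and those beside them varied. Ccl11, an eosinophil attractant that lies inside the Ccl2 to Ccl8 cluster, had 4 counts in replicate 1 and 9 counts in replicate 2. Inside the Ccl5 to Ccl4 cluster, Rpl9-ps1 had 3 counts in replicate 1 and 2 counts in replicate 2. E230016K23Rik, annotated as a processed transcript on the opposite strand and overlapping the body of Ccl6 but none of its exons, had 17 counts in each library. Gm17268, annotated as protein-coding on the opposite strand, overlaps the body of Ccl2 and runs beyond that end of the cluster, and had 0 counts in both libraries. Asic2 and Ccl1, the nearest protein-coding genes lying wholly outside the Ccl2 to Ccl8 cluster, also had 0 counts in both libraries. Beyond the Ccl5 to Ccl4 cluster, Wfdc17 had 40.7 TPM in replicate 1 and 40.4 TPM in replicate 2. Heatr9, 3.60 kb from the Ccl5 end of that cluster, had 2.06 TPM in replicate 1 and 5.82 TPM in replicate 2.

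The libraries were compared gene by gene with a two-sided exact binomial test of counts against the library shares after TMM scaling, Benjamini-Hochberg adjusted over the 16140 genes with 10 or more counts. A gene was called where its adjusted p was under 0.05 and its log2 ratio of replicate 1 over replicate 2 was at least 1 in either direction. This test compares these libraries and takes counting as the only error. Of all genes tested 6.65% were called, 2.01% as higher and 4.63% as lower in replicate 1. All 10 CC chemokine genes passed the count minimum and 2 were called, Ccl12 and Ccl8, both lower in replicate 1. Ccl12 had 273 counts in replicate 1 and 717 counts in replicate 2. After scaling it was 2.51-fold lower in replicate 1 (log2 ratio -1.33, adjusted p = 7.82e-41, exact binomial test). Ccl8 had 84 counts in replicate 1 and 231 counts in replicate 2, and was 2.62-fold lower in replicate 1 (log2 ratio -1.39, adjusted p = 1.3e-14, exact binomial test). Both calls were also made on the index-based table, with log2 ratios of -1.39 for Ccl12 and -1.71 for Ccl8. Both were lost when edgeR's exact test was given a dispersion of 0.04 to stand for a spread between cultures, with an adjusted p of 0.117 for Ccl12 and 0.128 for Ccl8. With a dispersion of 0.01 both were kept, at adjusted p = 9.58e-07 for Ccl12 and 2.57e-05 for Ccl8 in that exact test. The summed markers of other cell types were also lower in replicate 1 (2.37 TPM) than in replicate 2 (3.85 TPM), and their part in the difference was not tested. RNA input was lower in replicate 1 as well, and cannot be told apart from replicate. The marker sums did not all move this way. Fibroblast markers had 0.18 TPM in replicate 1 and 0.03 TPM in replicate 2, and T-cell and natural killer cell markers were equal in both.

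**Figure D3:**
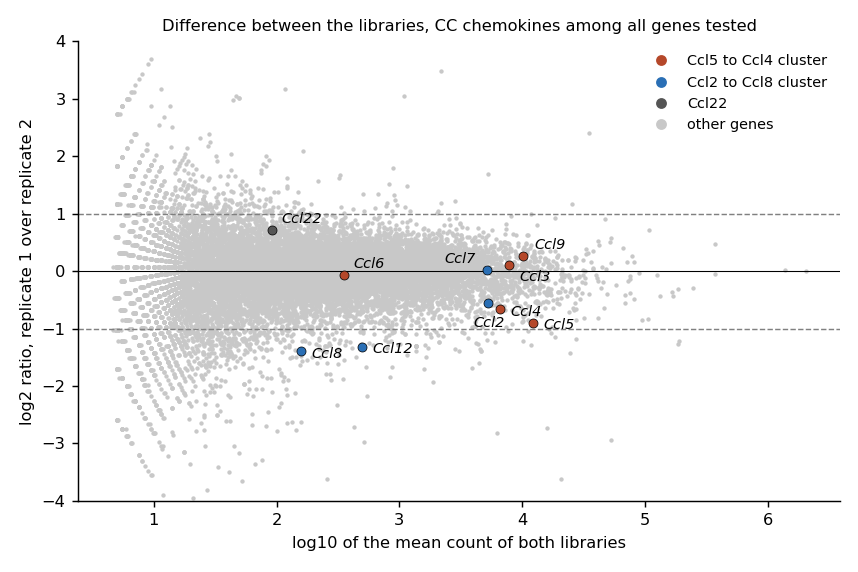
Log2 ratio of replicate 1 over replicate 2 after TMM scaling (vertical axis) against the log10 mean count of both libraries (horizontal axis) for the 16140 genes tested, in grey, with the CC chemokine genes coloured by cluster and dashed lines at the ratio needed for a call. Ccl12 (-1.33) and Ccl8 (-1.39) lie below the lower line, Ccl5 (-0.91) lies just above it, and 97 genes lie outside the plotted range of 4 in either direction.

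The members' ratios lay on both sides of 0. They were below 0 for 6 of the 10 and above 0 for 4, with a median of -0.32 on the log2 scale, beside -0.0057 over all genes tested, of which 50.5% were below 0. Ccl5 had a log2 ratio of -0.91, Ccl4 -0.65 and Ccl2 -0.56, all under the minimum ratio. With no minimum ratio, 8 of the 10 had an adjusted p under 0.05 in the exact binomial test, beside 38.8% of all genes tested. The test detects smaller ratios at higher counts, and the 38.8% covers genes with as few as 10 counts. The 2 shares are therefore not like for like. Ccl5 had 8221 counts in replicate 1 and 16198 counts in replicate 2. Ccl9 lay on the other side, with 10952 counts in replicate 1, 9542 counts in replicate 2 and a log2 ratio of 0.26 (adjusted p = 7.35e-38, exact binomial test). Ccl3 had a ratio of 0.11 and Ccl7 of 0.02, and the sign of both turned on the index-based table, at -0.21 for Ccl3 and -0.25 for Ccl7. Ccl6 stood at -0.07 with 337 counts in replicate 1 and 371 counts in replicate 2 (adjusted p = 0.668, exact binomial test), and at 0.01 when scaled to library totals. Ccl22 stood at 0.71 and was not called. For the 8 members with 100 or more counts in both libraries the median absolute log2 ratio was 0.41, beside 0.23 over all 8640 such genes.

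The summed counts of the 2 clusters had nearly the same ratio between libraries, while single genes varied. They gave a log2 ratio of -0.31 for the Ccl5 to Ccl4 cluster and -0.33 for the Ccl2 to Ccl8 cluster. On summed TPM the clusters were less alike. There the Ccl5 to Ccl4 cluster was 3.29-fold above the other in replicate 1 and 3.68-fold above it in replicate 2. Ratios of single genes ran between -0.91 and 0.26 in the Ccl5 to Ccl4 cluster, with 0 of 5 called, and between -1.39 and 0.02 in the Ccl2 to Ccl8 cluster, with 2 of 4 called, beside 6.65% of all genes tested. Whether the clusters differ in this was not tested. Heatr9, the neighbour of Ccl5, was also called, with 113 counts in replicate 1 and 335 counts in replicate 2 and a log2 ratio of -1.50. Its call too was lost at a dispersion of 0.04 (adjusted p = 0.0619, edgeR exact test).

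The 2 called genes are neighbours 13.3 kb apart on the plus strand, and the RefSeq promoter table (GRCm38.p6) held a window from 250 bases before to 50 bases after the start for both. The 250 bases before each start are given 5′ to 3′, with a TATA box motif (TATAAA) in capitals.
Ccl12, chr11:82101595-82101844, plus strand: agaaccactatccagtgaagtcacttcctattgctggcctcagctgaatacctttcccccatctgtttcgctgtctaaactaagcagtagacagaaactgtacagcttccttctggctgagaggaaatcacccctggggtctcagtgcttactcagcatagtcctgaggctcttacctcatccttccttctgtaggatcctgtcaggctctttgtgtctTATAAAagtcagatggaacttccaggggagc
Ccl8, chr11:82114935-82115184, plus strand: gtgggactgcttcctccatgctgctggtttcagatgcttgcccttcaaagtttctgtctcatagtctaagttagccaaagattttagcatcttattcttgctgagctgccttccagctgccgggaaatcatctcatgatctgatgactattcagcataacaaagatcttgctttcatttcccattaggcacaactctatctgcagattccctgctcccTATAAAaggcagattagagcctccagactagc
The motif lay at -31 to -26 from the start in Ccl12 and at -32 to -27 in Ccl8. Windows for 6 members were found, those of Ccl3, Ccl6, Ccl8, Ccl9, Ccl12 and Ccl22, and TATAAA on either strand was in 3 of them (Ccl12, Ccl8 and Ccl9), beside 13.6% of the table's 32851 windows. In Ccl9 it lay farther from the start, at -92 to -87 and, on the other strand, at -224 to -219 and -94 to -89. The AP-1 motif TGANTCA was in the window of Ccl9 alone, at -53 to -47, beside 7.81% of all windows. The NF-kB consensus, searched on both strands, was also in Ccl9 alone, beside 8.46% of all windows. The interferon-stimulated response element (GAAA, any 2 bases, GAAA; both strands) was in none of the 6, beside 3.44% of all windows. These are matches of letters in a window and describe no binding.

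At the transcript level, 10 of the 17 annotated transcripts were protein-coding, 4 were annotated as retained introns and 3 as processed transcripts. Ccl3, Ccl4, Ccl7 and Ccl8 had a single transcript each. In the alignment-based table, transcripts not annotated as protein-coding held 14.0% of the members' TPM in replicate 1 and 19.0% in replicate 2, a mean of 16.5% ± 3.57 (SD, n = 2). Nearly all of this was in transcripts annotated as retained introns, which held 13.9% in replicate 1 and 18.6% in replicate 2. This is an annotated class, and in nuclear RNA it was not told apart from unspliced precursor RNA. The retained-intron shares below carry the same limit. The index-based table gave 15.6% and 18.6% for retained introns in replicates 1 and 2, and 22.2% and 24.2% for all transcripts not annotated as protein-coding.

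The TPM of transcripts annotated as retained introns came mainly from Ccl5 and Ccl2. The sequences show where the annotated transcripts part: each line gives the last 20 bases of exon 2 and the 20 bases that follow in the transcript, 5′ to 3′ in GENCODE M21, with the first 2 intron bases in capitals where the intron is kept.
Ccl2-201: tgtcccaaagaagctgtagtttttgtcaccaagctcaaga
Ccl2-202: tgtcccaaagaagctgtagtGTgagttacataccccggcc
Ccl5-201: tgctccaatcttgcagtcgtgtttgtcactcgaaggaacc
Ccl5-202: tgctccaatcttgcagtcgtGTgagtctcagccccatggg
Ccl2-202 holds all 325 bases of intron 2 (chromosome 11, 82036601 to 82036925), and Ccl5-202 runs 428 bases into an intron 2 of 3091 bases (chromosome 11, 83526065 to 83529155). Ccl5-202 had 231 TPM in replicate 1 and 454 TPM in replicate 2. Ccl5-201, the coding transcript, had 457 TPM in replicate 1 and 747 TPM in replicate 2. The retained-intron share of Ccl5 was thus 33.6% in replicate 1 and 37.8% in replicate 2, and 39.5% and 40.8% in the index-based table. For Ccl2 the share was 25.6% in replicate 1 and 24.3% in replicate 2, and 25.6% and 22.84% in the index-based table, so both tables gave close values. Over 5155 protein-coding genes with such a transcript and 100 or more counts in each library, the median share was 19.9% in replicate 1 and 22.84% in replicate 2. Ccl5 stood at the 72.1 percentile in replicate 1 and the 75.1 percentile in replicate 2, and Ccl2 at the 59.6 percentile and the 52.3 percentile. In the index-based table Ccl5 stood at the 70.9 percentile in replicate 1 and the 71.5 percentile in replicate 2. Ccl2 stood below the median there, at the 48.5 percentile and the 39.8 percentile. Neither gene was therefore at an end of the range in either table.

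**Figure D4:**
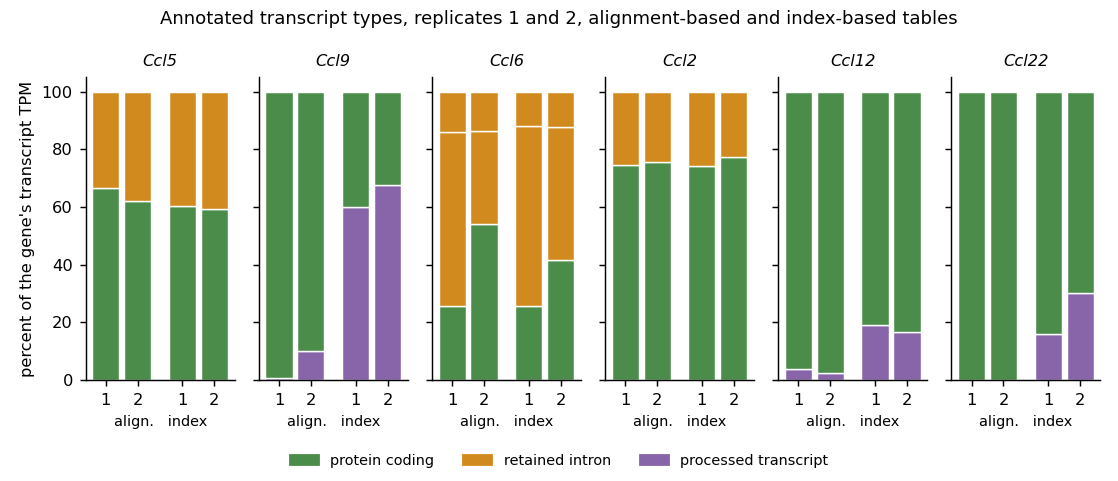
Percent of each gene's transcript TPM (vertical axis) by annotated transcript type for the 6 members with more than 1 transcript, with replicates 1 and 2 side by side in the alignment-based table (left pair) and the index-based table (right pair). Ccl5 and Ccl2 look alike in all 4 columns, and Ccl9 differs between the tables. Ccl6 has a larger share annotated as retained introns in replicate 1 (74.2% in the alignment-based table) than in replicate 2 (46.0%).

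Among the members with a transcript annotated as a retained intron (Ccl2, Ccl5 and Ccl6), Ccl6 had the highest such share and the least even one. Ccl6-202 and Ccl6-203, both annotated as retained introns, together held 74.2% of the gene's TPM in replicate 1 and 46.0% in replicate 2, against 74.5% and 58.4% in the index-based table. This placed Ccl6 at the 97.9 percentile of genes in replicate 1 and the 84.2 percentile in replicate 2. The difference lay in Ccl6-202, which had 8.95 TPM in replicate 1 (the authors' deposited interval for its TPM was 6.82 to 10.5) and 3.92 TPM in replicate 2 (2.23 to 5.57). The coding transcript Ccl6-201 had 3.84 TPM in replicate 1 (2.96 to 4.60) and 6.51 TPM in replicate 2 (5.33 to 7.35). The intervals of the 2 libraries did not overlap for either transcript. They cover read counting and assignment in 1 library, not the spread between cultures. Of the 746 stretches of 31 bases in Ccl6-202, 69 occurred in no other transcript. Its estimated counts were 165.7 in replicate 1 and 78.7 in replicate 2, so the split rests on few reads.

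Ccl9 had a transcript split that depended on the table. Ccl9-202, a processed transcript of 398 bases beside the 3006 bases of Ccl9-201, held 0.65% of the gene's TPM in replicate 1 and 10.2% in replicate 2 of the alignment-based table. In the index-based table it held 60% in replicate 1 and 67.5% in replicate 2. Of the 368 stretches of 31 bases in Ccl9-202, 39 occurred in no other transcript, and 120 stretches of Ccl9-201 also occurred in transcripts of other genes. Ccl12-202 held 3.77% in replicate 1 and 2.37% in replicate 2 of the alignment-based table, against 19.1% and 16.5% in the index-based table. Ccl22-202 had 0 counts in the alignment-based table, and 16.0% in replicate 1 and 30.04% in replicate 2 of the index-based table, on 3.48 and 4.60 counts. The shares of these 3 processed transcripts are therefore not settled by the deposited tables.

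The other CC ligands were nearly silent. Of 15 further symbols, 14 were matched, in 18 annotated entries, and 13 entries had 0 counts in both libraries. Ccl25, a ligand of Ccr9 known from thymus and small intestine, was the one entry at 1 TPM or more, with 6.35 TPM in replicate 1 and 4.75 TPM in replicate 2. Its mean of 5.55 TPM was above that of the member Ccl22, at 1.375 TPM. Ccl17, the other Ccr4 ligand, had 0 counts in both libraries, and Ccl24, an eosinophil attractant, had 0 counts in replicate 1 and 1 count in replicate 2. The index-based table gave Ccl24 0.957 TPM in replicate 1 and 0.554 TPM in replicate 2. None of the 3 entries with enough counts to test was called. Ccl25 had a log2 ratio of 0.39 (adjusted p = 0.00181, exact binomial test), under the minimum ratio. Copies of Ccl21a, Ccl21b, Ccl21c, Ccl19, Ccl27a and Ccl27b are near-identical or share symbols in the annotation, so their counts are uncertain.

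Receptor genes for chemokines were also measured. Ccrl2, a receptor-like protein that binds the attractant chemerin and does not signal by the usual route, had 104 TPM in replicate 1 and 133 TPM in replicate 2. Ccr1, the receptor for Ccl6 and Ccl9 among others, had 7.83 TPM in replicate 1 and 3.81 TPM in replicate 2. Ccr2, the receptor for Ccl2, Ccl7 and Ccl12, had 2.19 TPM in replicate 1 and 1.92 TPM in replicate 2. Of the 10 receptor genes with enough counts to test, 1 was called, beside 6.65% of all genes tested. Ccr1 was higher in replicate 1 (log2 ratio 1.05, adjusted p = 3.55e-28, exact binomial test). It was under the minimum ratio on the index-based table, at 0.93, and at a dispersion of 0.04 its adjusted p was 0.371 in edgeR's exact test. The receptors of Ccl22 and Ccl8 were at or near 0, with 0 counts in replicate 1 and 1 count in replicate 2 for Ccr4, and 0 counts in both libraries for Ccr8.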

How the data were processed

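Ribosomal-RNA-depleted nuclear RNA of 2 libraries in 1 group was analysed. Per the file headers, all tables use mm10 and GENCODE M21, with 1 set of tables per library. Gene-level values and 1 kind of transcript table were made from transcriptome alignments, the other kind from a transcript index; aligner, quantifier and strand setting: not given in the sources used here. Expected counts, as the authors deposited them, are estimated counts, as reads shared by transcripts are divided. The authors deposited TPM (scaled by effective length), FPKM (scaled by length and depth), the percent of each gene's TPM per transcript, and interval bounds of TPM, recorded here as a score.

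Rows naming no annotated gene (26345 of 81881, with 0.144% of counts in replicate 1 and 0.081% in replicate 2) were left out. Expected counts were rounded. TMM and preset-dispersion exact tests used edgeR 4.0.16 (R 4.3.3), other size factors DESeq2 1.42.0, and binomial tests SciPy 1.17.1. Ratios used 0.5 added to each count. The binomial test was run on simulated counts that held counting error only, so that run cannot speak to spread between libraries. Libraries held 20612078 counts (replicate 1) and 22772081 counts (replicate 2). Binomial p-values and floors cover counting error only. The deposited intervals cover read counting and assignment in 1 library. Percentiles are among protein-coding genes whose counts summed to 10 or more. Sequences were read from GENCODE M21 and RefSeq.

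The members and lists were chosen with earlier results of these data known. Named were all members, all other CC ligands and receptors at 1 TPM or more, genes inside and next to each cluster, and transcripts with at least 5% of their gene's TPM; 1 item this rule covers is not reported here. Ccl17, Ccl24, Ccr4 and Ccr8 were named after their values were seen. Alternatives covered scaling, count minimums, dispersion, the minimum ratio, the table, the unit and leaving out each library.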

Additional observations from a re-analysis of the deposited data

How the results depend on the processing

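Of the 10 members, 2 were called with TMM scaling, library totals, DESeq2 size factors, no count minimum, the index-based table and an edgeR exact test at dispersion 0.01. Of all genes tested, those settings called between 4.59% (dispersion 0.01) and 9.26% (index-based table). Among the members there was 1 call (Ccl12) where each library had to hold 100 or more counts. Ccl8 (84 counts in replicate 1) and Ccl22 (72 counts in replicate 2) missed that minimum and were not tested there. There were 8 with no minimum ratio, and 0 at dispersion 0.04 in edgeR's exact test. Over all genes, 1073 (6.65% of those tested) were called, against 2312 (9.26%) on the index-based table and 172 (1.99%) at 100 or more counts in both. With no minimum ratio 6255 (38.8%) were called, and at dispersion 0.04 196 (1.21%). The number of genes tested differed between settings. The split was 325 higher and 748 lower in replicate 1, against 1286 higher and 1026 lower on the index-based table. Log2 ratios turned on the index-based table for Ccl7 (-0.25) and Ccl3 (-0.21), and with library totals for Ccl6 (0.01); the cause was not tested. The log2 ratio of the Ccl5 to Ccl4 cluster over the Ccl2 to Ccl8 cluster was 1.80, 2.06 on the index-based table and 1.67 on protein-coding transcripts alone. The share of transcripts not annotated as protein-coding was 16.5%, against 23.2% on the index-based table. The members' summed TPM was 2084 in replicate 1 and 2825 in replicate 2, against 1436 and 949 on the index-based table. The direction of summed TPM thus turned, while the log2 ratio of Ccl5 on scaled counts was -0.91, and -0.87 on the index-based table. No paired analysis was possible because there was 1 group, and with 1 library left no call can be made.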
